A study of Mus musculus with 90 samples.

Results

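Kidney cortex taken from Balb/c mice 24 h after injection of 1.8 kBq of astatine-211 (211-astatine in the labels) was compared with kidney cortex of the 0 kBq group. The comparison was chosen by tissue and injected activity and held 6 of the 90 arrays of the series, 3 at each activity. The whole series covered 5 tissues at 6 injected activities, 0, 0.064, 0.64, 1.8, 14 and 42 kBq, in 30 groups of 3 arrays. The study asked how gene transcription in mouse tissues responds to low absorbed doses of this nuclide given intravenously. Both groups were of the same strain and differed in the labels only by the injected activity, and the labels gave no sex, no age and no description of what the 0 kBq animals received. Total RNA from fresh-frozen tissue was labelled with biotin and hybridised to Illumina mouse bead arrays. The labels did not say that the 3 arrays of a group came from separate animals. Every p-value here rests on the spread among arrays within all groups of its fit, and in large part that spread may be technical.

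Astatine-211 is a halogen radionuclide that decays by emitting alpha particles, which deposit their energy along a short, dense track. The kidney cortex holds the glomeruli, which filter the blood, and the proximal tubules, which take back most of the filtrate. When tubule cells are injured from whatever source, they are known to make a set of proteins that are scarce in healthy cortex, among them Havcr1 (kidney injury molecule 1), Lcn2 (neutrophil gelatinase-associated lipocalin) and Timp1, together with chemokines and acute phase proteins under the control of the transcription factors NF-kB and STAT3.

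The 6 arrays detected between 12940 and 13363 probes, and each had a mean correlation with the other arrays of its group of at least 0.985. Levels below are normalized log2 intensities, given per array in the order of the replicate numbers. The tissue label was checked against marker genes. The sodium-phosphate transporter Slc34a1 of the proximal tubule had levels between 14.97 and 15.19, the upper end of the log2 scale, on all 6 arrays, and the 11 measured markers common to all proximal tubule segments had mean levels between 11.02 and 11.57. The collecting duct water channel Aqp2 lay between 7.93 and 8.50 on the 6 cortex arrays and at 10.02 to 10.38 on the matching medulla arrays. In the fit of this comparison the 12 arrays of the other activities served to estimate the spread. They also took part in the normalization, in the choice of probes to test and in the choice of the probe that described each gene. Among them the 6 arrays of 0.064 and 0.64 kBq stood apart: the median SD of a probe within a group was 0.231 and 0.221 there, against 0.151 to 0.179 in the other groups. Array 1 of 0.64 kBq also carried the Y-linked transcript Eif2s3y at 8.32 and had no detected Xist, the reverse of the other 17 cortex arrays. Counts over all probes and over the gene lists are therefore given with and without these 6 arrays, and the fit without them is called the 12-array fit.

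More genes rose than fell, and the rises were larger. Of 15063 probes tested with limma, 226 were higher (1.5%) and 75 were lower (0.498%) at 1.8 kBq at an adjusted p under 0.05. With 1 probe per gene, 160 of 10331 genes rose (1.55%) and 45 fell (0.436%). The median change of the 160 genes was 0.84 on the log2 scale, and 59 of them rose at least 2-fold. The 45 genes that fell had a median change of -0.72, and 3 of them fell at least 2-fold. Over all genes the median change was -0.02, and the 2 groups of values did not overlap for 24.4% of all genes, 12.3% higher and 12.1% lower. With the replicate number as a block, by which arrays of the same number were paired, 397 probes were called, 264 of them higher. Median scaling in place of quantile normalization gave 233 higher and 31 lower, a share of 88.3% higher against 75.1%. In the 12-array fit 776 probes were higher and 482 lower, and all 301 calls of the 18-array fit were among them. With 1 probe per gene 4.91% of genes rose and 3.52% fell in that fit. These shares, and 1.55% and 0.436% in the 18-array fit, are the background for the counts of list members below. At an unadjusted p under 0.05 in the 18-array fit 7.16% of genes were higher and 7.1% lower, which is the background for the unadjusted counts given below. Leaving out 1 of the 6 arrays left between 110 calls, without array 2 of 0 kBq, and 218, without array 3 of 1.8 kBq. Of the 301 calls 110, 106 and 120 were kept without arrays 1, 2 and 3 of 0 kBq, and 108, 126 and 183 without arrays 1, 2 and 3 of 1.8 kBq.

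Genes of the tubular injury list rose together. Of 15 tested members 8 rose and 0 fell, against 1.55% and 0.436% of all genes, and the median change of the 15 was 0.85 against -0.02 for all genes tested. The 12-array fit called 12 of the 15. The values of 14 of the 15 lay wholly above those of the controls, where 12.3% of all genes did. The list, like the others here, was drawn up with earlier results of these data known.

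Havcr1, a membrane receptor by which injured tubule cells take up dying cells, had levels of 6.70, 6.46 and 6.29 at 0 kBq and of 9.76, 10.49 and 10.33 at 1.8 kBq. All treated arrays of Havcr1 lay above all controls. Lcn2, a secreted protein that binds the iron carriers of bacteria, had levels of 5.28, 5.38 and 5.29 at 0 kBq and of 9.0, 8.90 and 8.83 at 1.8 kBq. Both groups were tight, and Lcn2 rose by 3.60 ± 0.28 (SE, n = 3 arrays a group; adjusted p = 4.37e-07, limma), while Havcr1 rose by 3.71 ± 0.60 (adjusted p = 0.00197). Timp1, an inhibitor of matrix metalloproteinases, had levels of 5.03, 4.96 and 4.92 at 0 kBq, where 1 of 3 arrays detected it, and of 7.19, 7.23 and 7.16 at 1.8 kBq. It rose by 2.22 ± 0.21 (adjusted p = 4e-06), and both of its probes were called. Vcam1, an adhesion molecule for leukocytes, rose 2.71-fold, Anxa3, a calcium-dependent membrane-binding protein, 2.42-fold, the intermediate filament gene Vim 2.09-fold and the keratin gene Krt8 1.69-fold. With 1 of the 6 arrays left out, Vim passed in 2 of 6 fits, and Vcam1, Anxa3 and Krt8 in 6. Anxa2, outside the rule for naming genes and named after its values were seen, rose by 0.63. Clu and Krt18, both usual members of such lists, changed by 0.41 and 0.34 without passing the test (adjusted p = 0.329 and 0.434).

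**Figure D1:**
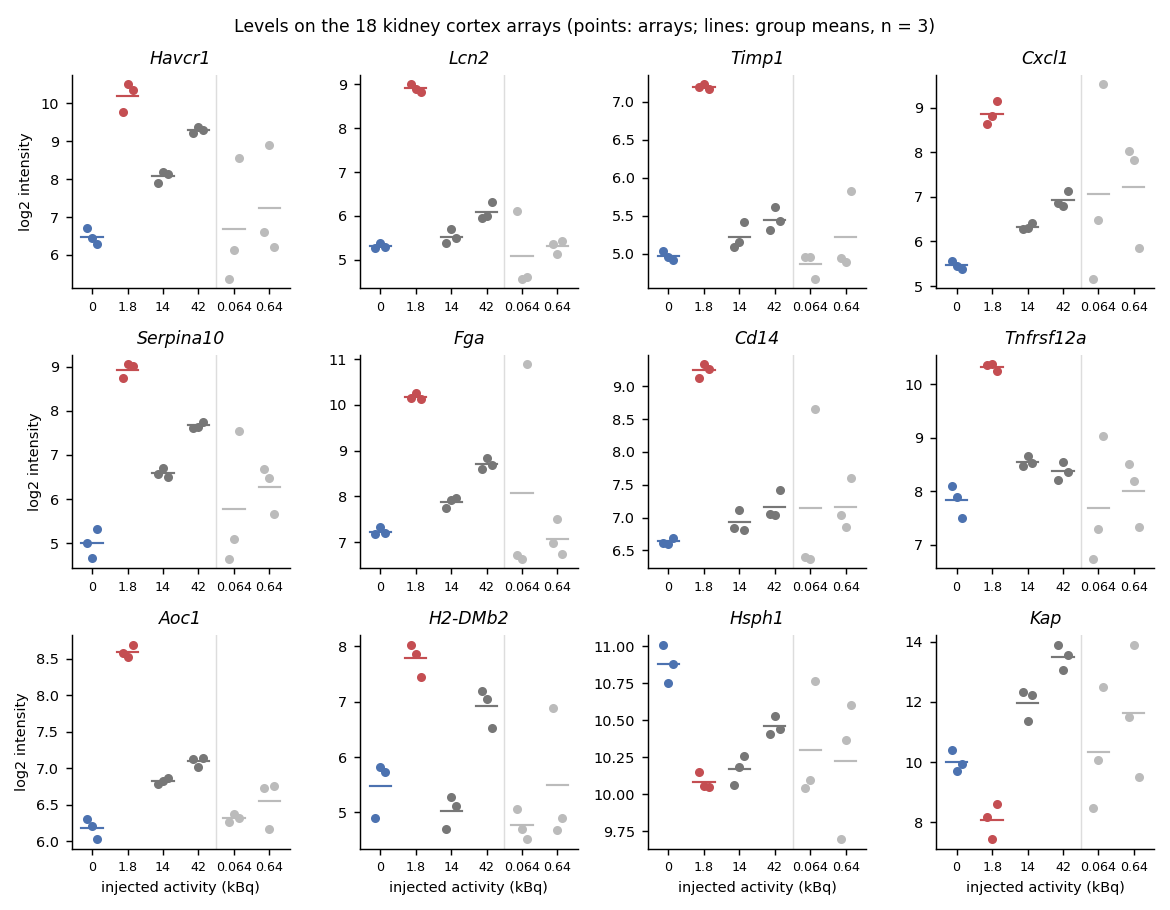
Log2 levels of 12 genes on the 18 kidney cortex arrays by injected activity in kBq; each point is an array and each line a group mean (n = 3), and the 0.064 and 0.64 kBq groups stand right of the grey line. Havcr1, Lcn2, Timp1, Cxcl1, Serpina10 and Fga are highest at 1.8 kBq among 0, 1.8, 14 and 42 kBq, while Hsph1 and Kap are lower at 1.8 than at 0 kBq, Kap without passing the test.

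The promoter of Lcn2 is shown because Lcn2 had the smallest adjusted p of the injury list and, with Cxcl1 and Fga below, stands for the kinds of gene that rose. The 250 bases before its start site lie at chr2:32387740-32387989 on the minus strand of GRCm38.p6 (RefSeq).
Lcn2: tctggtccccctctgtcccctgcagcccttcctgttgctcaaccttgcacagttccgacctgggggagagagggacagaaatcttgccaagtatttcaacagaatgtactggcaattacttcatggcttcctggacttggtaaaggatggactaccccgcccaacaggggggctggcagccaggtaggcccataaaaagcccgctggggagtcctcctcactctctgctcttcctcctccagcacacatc
No letters are capitals, since none of the 3 motifs searched, GGGNNTTNCC (NF-kB), TTCNNNGAA (STAT) and TGANTCA (AP-1), each on both strands, was in this window.

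The neutrophil chemokine Cxcl1 and genes for leukocyte adhesion also rose. Of 11 tested genes of the chemokine, cytokine and adhesion list 4 rose and 0 fell, against 1.55% and 0.436% of all genes. The median change was 0.57. In the 12-array fit 5 rose, against 4.91% of all genes. Another 7 members, Cxcl2, Cxcl5, Ccl2, Ccl20, Il6, Tnf and Sele, were not detected on any of the 6 arrays and were not tested. Cxcl1, which draws neutrophils to a tissue, had levels of 5.56, 5.45 and 5.39 at 0 kBq and of 8.65, 8.81 and 9.16 at 1.8 kBq. The groups did not overlap, and the change was 3.41 ± 0.68 (adjusted p = 0.011, limma), although the arrays of 0.064 kBq alone spanned 5.17 to 9.53. With 1 of the 6 arrays left out, its adjusted p was between 0.0392 and 0.0528 and passed in 4 of 6 fits. The other 3 risers were Vcam1, Icam1, a second adhesion molecule of the vessel wall, and Nfkbiz, a nuclear partner of NF-kB, with Icam1 up by 0.92 ± 0.14 (adjusted p = 0.00162) and Nfkbiz by 0.99 ± 0.17 (adjusted p = 0.00371).

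Cxcl1 is a textbook target of NF-kB. Its promoter lies at chr5:90890995-90891244 on the plus strand of GRCm38.p6 (RefSeq), and capitals mark the matches to the NF-kB letters.
Cxcl1: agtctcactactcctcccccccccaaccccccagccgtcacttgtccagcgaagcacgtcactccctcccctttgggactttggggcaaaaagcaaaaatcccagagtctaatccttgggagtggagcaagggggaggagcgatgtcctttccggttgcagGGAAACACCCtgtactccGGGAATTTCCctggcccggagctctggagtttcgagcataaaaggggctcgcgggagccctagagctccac
The 2 matches stand at bases -89 to -80, read on the minus strand, and -71 to -62 from the start site. NF-kB letters were found in 4.11% of 32851 mouse promoters of this length. Counted by gene, at any start site, they were in 4.71% of 27025 mouse genes and in 5.52% of 8373 genes tested here. Among the 134 risers that had a promoter in the table, 15 held them (11.2%). For AP-1 these shares by gene were 7.82%, 6.03% and 11.2%, and for STAT 8.13%, 7.51% and 8.96%. Of 33 genes that fell, 2, 4 and 2 held the NF-kB, AP-1 and STAT letters. These are counts of letters, and no test was made of them.

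Acute phase proteins, which the liver secretes in inflammation and which injured tubules can also make, were higher in part. Of 12 tested members 4 rose and 0 fell, against 1.55% and 0.436% of all genes. The median change was 0.65, or 0.63 with genes undetected in 1 group set at their bound. The count of rises was 7 in the 12-array fit and 2 with any 1 of the 6 arrays left out. Fga, the alpha chain of fibrinogen, had levels of 7.17, 7.33 and 7.19 at 0 kBq and of 10.15, 10.27 and 10.13 at 1.8 kBq. The groups lay far apart, and Fga rose by 2.95 ± 0.66 (adjusted p = 0.0215, limma). The 0.064 kBq arrays, which share the estimate of its spread, had levels of 6.71, 6.64 and 10.89. Its second probe rose by 3.11 ± 0.67, and in fits without 1 of the 6 arrays the adjusted p of Fga was between 0.0561 and 0.0835, never past the threshold. Fgg, the gamma chain, had levels of 6.13, 6.07 and 6.55 at 0 kBq and of 8.30, 8.26 and 8.25 at 1.8 kBq, without overlap. The change of Fgg, 2.02 ± 0.82, did not pass (adjusted p = 0.243), while in a fit of the 6 arrays alone its adjusted p was 3.8e-05. Hpx, which binds free haem, was undetected on all 3 control arrays and rose at least 1.74-fold (adjusted p = 0.000433). Cp, the copper carrier ceruloplasmin, rose 2.42-fold (adjusted p = 0.00454), and Socs3, a feedback inhibitor of cytokine receptors, rose by 0.92 ± 0.21 (adjusted p = 0.0255) but passed in 0 of 6 fits with 1 array left out.

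The promoter of Fga is printed because fibrinogen genes are textbook STAT3 targets in hepatocytes. It lies at chr3:83025903-83026152 on the plus strand of GRCm38.p6 (RefSeq), and capitals mark the match to the STAT letters.
Fga: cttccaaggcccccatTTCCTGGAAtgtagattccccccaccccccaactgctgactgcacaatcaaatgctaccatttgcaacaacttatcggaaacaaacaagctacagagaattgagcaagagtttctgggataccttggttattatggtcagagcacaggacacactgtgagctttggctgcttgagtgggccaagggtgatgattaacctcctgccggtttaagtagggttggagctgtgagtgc
The match stands at bases -234 to -226 from the start site, and the STAT pattern is met there on both strands. The promoter of Fgg held none of the 3 motifs.

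Other secreted proteins best known from the liver moved in the same direction. Of 8 tested hepatocyte markers 3 rose and 0 fell, against 1.55% and 0.436% of all genes. The mean level of the 8 was between 6.50 and 6.57 on the control arrays and between 6.98 and 7.32 on the treated ones. Apoa1, the main protein of high-density lipoprotein, was undetected at 0 kBq, had levels of 6.41, 6.55 and 5.76 at 1.8 kBq, and rose at least 2.30-fold (adjusted p = 0.000243, limma). Ahsg, the plasma carrier fetuin-A, was undetected at 0 kBq, had levels of 6.14, 6.22 and 6.21 at 1.8 kBq, and rose at least 2.23-fold (adjusted p = 2.8e-05). Apoa2, a second lipoprotein gene, rose by 1.04 ± 0.25 and passed in 1 of 6 fits with 1 array left out. Of the 8 markers 4 rose in the 12-array fit. Alb, Tat, Cyp2c29 and Cyp3a11 of the same list were not detected on any of the 6 arrays. Among the 5 markers tested and not called, Ttr changed by -0.12 and Serpina1b by 0.14 (adjusted p = 0.89 and 0.83, limma). Whether liver RNA had a part in the 3 rises was not tested.

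Among signalling genes, Stat3 itself rose. It had levels of 9.80, 9.78 and 9.74 at 0 kBq and of 10.71, 10.88 and 10.67 at 1.8 kBq, a rise of 0.98 ± 0.17 (adjusted p = 0.00427, limma), and all 3 of its probes were called. Of 12 tested genes of interleukin 6 and STAT3 signalling 2 rose, Stat3 and Socs3, and 0 fell, against 1.55% and 0.436% of all genes. The median was 0.36, with 4 up in the 12-array fit and 1 up in each fit that left out 1 array. Of 13 immediate early genes 1 rose, Klf6, a zinc finger transcription factor, by 0.91 ± 0.19 (adjusted p = 0.0142), and the list's median was 0.35. Egr1, with a change of 1.04, and Fos, with 0.75, did not pass (adjusted p = 0.0628 and 0.156), though their treated values lay above all controls. In the 12-array fit 5 of the 13 rose, against 4.91% of all genes, and with 1 array left out 0 or 1 did.

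The p53 pathway, by which cells answer DNA breaks, showed 1 rise. Cdkn1a, the cell cycle inhibitor p21, had levels of 6.27, 6.60 and 6.56 at 0 kBq and of 7.52, 7.47 and 7.77 at 1.8 kBq. It rose by 1.11 ± 0.20 (adjusted p = 0.00427, limma), and 2 of its 3 probes were called. The other 18 of 19 tested p53 targets did not pass, where 1.55% of all genes rose and 0.436% fell, and the median of the list was 0.02. Mdm2, which marks p53 for destruction, changed by -0.05, Phlda3, an inhibitor of Akt, by -0.05 and the cyclin gene Ccng1 by -0.28. Of 15 genes of DNA repair and 14 of the cell cycle 0 rose and 0 fell, in this fit and in the 12-array fit, with medians of 0.02 and -0.08. At an unadjusted p under 0.05 (limma) 1 repair gene and 2 cell cycle genes were higher. Among the p53 targets 4 were higher and 1 lower in the 12-array fit, against 4.91% and 3.52% of all genes. With the replicate block 2 were higher.

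Genes of antigen presentation tended to higher values, but few passed the test. Of 19 tested genes of the interferon gamma and MHC list 2 rose and 0 fell, against 1.55% and 0.436% of all genes. The median was 0.56. The values of 11 lay above all controls and those of 1 below, where 12.3% and 12.1% of all genes did. The class II genes H2-Aa, H2-Ab1, H2-Eb1 and Cd74, named after their values were seen, changed by 0.40, 0.88, 0.92 and 0.84, none past the test. In the 12-array fit 11 rose and 1 fell, while with 1 of the 6 arrays left out 0 or 1 rose. Ciita, the master regulator of MHC class II genes, rose by 1.34 ± 0.29 (adjusted p = 0.0196, limma), and Irf1, an interferon-induced transcription factor, by 0.98 ± 0.25 (adjusted p = 0.0484), with 1 of its 5 probes called. With 1 array left out, Irf1 passed in 0 of 6 fits and Ciita in 1. H2-DMb2, which helps load peptides onto MHC class II molecules, had levels of 4.89, 5.82 and 5.73 at 0 kBq and of 8.03, 7.87 and 7.45 at 1.8 kBq, and rose by 2.30 ± 0.41 (adjusted p = 0.00427). Its sequence is close to that of a neighbouring copy, and which of them its probe measured was not tested. Of 16 type I interferon genes 0 rose and 0 fell in limma, and 0 had an unadjusted p under 0.05.

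Macrophage markers did not move as a block. Of 11 tested, 2 rose and 1 fell, against 1.55% and 0.436% of all genes. The median was 0.44, and in the 12-array fit 4 rose and 1 fell. Cd14, a receptor for bacterial lipopolysaccharide, had levels of 6.61, 6.60 and 6.69 at 0 kBq and of 9.12, 9.33 and 9.27 at 1.8 kBq, and rose by 2.60 ± 0.38 (adjusted p = 0.00099, limma). The lysozyme gene Lyz1, which has the near-identical neighbour Lyz2, rose by 0.75 ± 0.16 (adjusted p = 0.019), and passed in 1 of 6 fits with 1 array left out. Fcrls, an Fc receptor-like gene, had levels of 5.81, 6.11 and 5.92 at 0 kBq and of 4.80, 5.32 and 5.34 at 1.8 kBq, and fell by 0.80 on the log2 scale (adjusted p = 0.0284), likewise passing in 1 of 6. Neutrophil markers showed no rise beside Cxcl1: of 7 tested 0 rose and 0 fell, at an unadjusted p under 0.05 (limma) 1 was higher and 3 lower, in the 12-array fit 2 fell, and their mean level was between 5.91 and 6.01 at 0 kBq and between 5.46 and 5.76 at 1.8 kBq. S100a8 had levels of 7.91, 8.34 and 8.19 at 0 kBq and of 6.37, 7.46 and 7.68 at 1.8 kBq, a change of -0.97 that did not pass (adjusted p = 0.304). In RNA from whole tissue, fewer cells of a type and less RNA per cell cannot be told apart.

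The largest rise of all belonged to none of these lists. Serpina10, a plasma inhibitor of coagulation factor X known as protein Z-dependent protease inhibitor, had levels of 5.0, 4.68 and 5.33 at 0 kBq, where 1 of 3 arrays detected it, and of 8.74, 9.05 and 9.01 at 1.8 kBq. It rose by 3.93 ± 0.46, or 15.2-fold (adjusted p = 9.35e-05, limma). Aoc1, the histamine-degrading diamine oxidase, had levels of 6.30, 6.20 and 6.03 at 0 kBq and of 8.58, 8.52 and 8.69 at 1.8 kBq, with a rise of 2.42 ± 0.16 (adjusted p = 5.03e-08). Tnfrsf12a, the receptor of the cytokine TWEAK, had levels of 8.10, 7.89 and 7.51 at 0 kBq and of 10.37, 10.37 and 10.25 at 1.8 kBq, with a rise of 2.50 ± 0.38 (adjusted p = 0.00131). None of these 3 genes had overlapping groups, and all 3 were called in each fit that left out 1 of the 6 arrays.

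Several enzymes and a metal importer also rose. The cytochrome P450 gene Cyp2d9 rose 4.61-fold and Cyp2e1, which oxidises small solvents and is a marker of the convoluted proximal tubule, rose 2.51-fold from an already high level of 11.24, 11.35 and 11.39 to 12.74, 12.62 and 12.60. Klk4, a secreted serine protease, rose 3.32-fold. The methyltransferase-like gene Mettl7a2, with levels of 7.97, 8.14 and 8.04 at 0 kBq and of 10.27, 10.42 and 10.35 at 1.8 kBq, rose 4.91-fold (adjusted p = 0.0129, limma), and passed in 2 of 6 fits with 1 array left out. Slc39a8, a zinc and manganese importer, rose 2.11-fold. Cyp2d9 and Mettl7a2 belong to families of similar genes, and cross-hybridisation was not tested.

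Smaller rises touched the matrix, metal binding and complement. Of 16 matrix genes 3 rose and 0 fell, against 1.55% and 0.436% of all genes, with a median of 0.29. The count of rises was 6 in the 12-array fit and 0 to 3 with 1 of the 6 arrays left out. The 3 rises were those of Sparc, a collagen-binding protein, by 0.83 ± 0.16, Lgals3, the lectin galectin-3, by 0.66 ± 0.13, and Col4a2, a basement membrane collagen, by 0.55 ± 0.11 (adjusted p = 0.00868, 0.00857 and 0.0149, limma). Sparc and Lgals3 passed in 4 of 6 fits with 1 array left out and Col4a2 in 2, and after median scaling Col4a2 did not pass. The metallothionein gene Mt1 rose by 0.50 ± 0.12 from levels of 13.12, 13.17 and 13.01 to 13.64, 13.61 and 13.54, but did not pass after median scaling (adjusted p = 0.138) or in any fit with 1 array left out. It was the 1 called gene among 18 of the metallothionein and antioxidant list, where 3 rose in the 12-array fit, against 4.91% of all genes. Hmox1, haem oxygenase 1, changed by 0.69 (adjusted p = 0.209, limma). The complement gene C2 rose by 0.45 ± 0.10 and was the 1 called gene of 14, where 5 rose in the 12-array fit and 2 with the replicate block. After median scaling C2 did not pass (adjusted p = 0.0621), and it passed in 1 of 6 fits with 1 array left out.

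Some heat shock genes and partners were among the genes that fell. Of 14 tested members of the list 0 rose and 2 fell, against 1.55% and 0.436% of all genes, with a median of -0.34. Hsph1, a nucleotide exchange factor of the Hsp70 family, had levels of 11.01, 10.75 and 10.88 at 0 kBq and of 10.15, 10.06 and 10.05 at 1.8 kBq, and fell by 0.79 (adjusted p = 0.0296, limma). Dnajb1, an Hsp40 cochaperone, had levels between 10.99 and 11.15 on the 3 arrays of 0 kBq and of 10.10, 10.40 and 10.39 at 1.8 kBq, and fell by 0.75 (adjusted p = 0.00742). Treated values of both lay below all controls, although Hsph1 passed in 0 of 6 fits with 1 array left out. Chordc1, a partner of Hsp90 outside the list, fell by 0.91 (adjusted p = 0.00957, limma) and passed in 3 of 6 fits with 1 array left out. Hspa1a changed by -0.37 without passing. The largest changes of the list were upward and did not pass, Cryab by 1.09 and Hspb1 by 1.04 (adjusted p = 0.431 and 0.163, limma). In the 12-array fit 2 members of the list were higher and 3 lower. With 1 array left out 0 or 1 member fell. Of 17 endoplasmic reticulum stress genes 0 rose and 0 fell, with Hspa5, the chaperone BiP, at -0.86 (adjusted p = 0.416). At an unadjusted p under 0.05, 2 of the 17 were higher and 1 lower, and 2 rose in the 12-array fit and 1 with the replicate block.

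Of the sterol synthesis genes 1 passed the test. Among 16 tested members 1 fell and 0 rose, against 0.436% and 1.55% of all genes. The median was -0.39, and the treated values of 12 lay below all controls, where 12.1% of all genes did. In the 12-array fit 9 of the 16 were lower, against 3.52% of all genes. Mvd, which makes isopentenyl diphosphate for cholesterol, had levels of 8.57, 8.66 and 8.96 at 0 kBq and of 7.96, 8.14 and 7.97 at 1.8 kBq, and fell by 0.71 (adjusted p = 0.0284, limma). After median scaling it did not pass (adjusted p = 0.0981), nor in any fit with 1 array left out. For Nsdhl, another sterol enzyme, the brighter probe changed by -0.26 (adjusted p = 0.417) and the dimmer probe fell by 0.96 (adjusted p = 0.0232), so its probes disagreed. Fatty acid synthesis genes had a median of -0.35 with 0 of 13 called, 3 lower at an unadjusted p under 0.05, 2 lower with the replicate block and 7 lower in the 12-array fit.

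The largest falls otherwise came from genes of unlike function. Tmem64, a membrane protein, had levels of 10.85, 10.90 and 11.07 at 0 kBq and of 9.09, 10.18 and 10.09 at 1.8 kBq, and fell by 1.15 (adjusted p = 0.0288, limma), with array 1 of 1.8 kBq the lowest. The transcription factor gene Sall2 and the zinc finger gene Zfp871 each fell by 1.10 (adjusted p = 0.0255 and 0.0224). Ptprd, a receptor tyrosine phosphatase, had levels of 11.77, 11.72 and 11.87 at 0 kBq and of 10.52, 10.83 and 11.33 at 1.8 kBq, fell by 0.89 (adjusted p = 0.00465), and was called in every fit with 1 of the 6 arrays left out. Paqr9, a membrane receptor of the progestin and adipoQ receptor family, fell by 0.94, the matrix proteoglycan gene Ogn by 0.89, and Gfpt2, an enzyme of the hexosamine pathway, by 0.88. With 1 of the 6 arrays left out, Tmem64 passed in 2 of 6 fits, and Sall2, Zfp871, Paqr9, Ogn and Gfpt2 in 1 each. The pyruvate dehydrogenase phosphatase gene Pdp2 fell by 0.54 and 0.85 and the nicotinic receptor gene Chrna4 by 0.63 and 0.85, on 2 probes each. On their brighter probes Pdp2 and Chrna4 did not pass after median scaling (adjusted p = 0.101 and 0.103) and passed in 0 of 6 fits with 1 array left out. For Cd59b, a complement inhibitor, the dimmer probe fell by 0.94 and the brighter one changed by 0.05 (adjusted p = 0.932).

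Few markers of the tubule segments passed the test. Over all genes 1.55% rose and 0.436% fell, or 4.91% and 3.52% in the 12-array fit. At an unadjusted p under 0.05 (limma) 7.16% were higher and 7.1% lower. Of the 11 markers of all proximal tubule segments 0 rose and 0 fell, with a median of -0.16, and the same held for 11 of the straight part, with a median of -0.15. At an unadjusted p under 0.05 (limma) 3 of the former were lower, and of the latter 4 were higher and 2 lower. In the 12-array fit 1 of the former fell, and of the latter 4 rose and 1 fell, while the replicate block gave 1 fall in the former and 1 rise in the latter. Of 10 markers of the convoluted part 1 rose, Cyp2e1, and 0 fell, with a median of -0.19. At an unadjusted p under 0.05 4 of the 10 were lower, and these counts were 1 higher and 4 lower in the 12-array fit. The phosphate transporter gene Slc34a1 changed by -0.10 and the glucose transporter gene Slc5a2 by -0.08. Of 11 markers of the loop of Henle 1 rose, the sodium-potassium-chloride transporter gene Slc12a1, by 0.73 ± 0.16 (adjusted p = 0.0215, limma). It passed in 1 of 6 fits with 1 array left out, and in the 12-array fit 3 of the 11 rose. Umod changed by 0.23, the distal transporter gene Slc12a3 by 0.22 and Aqp2 by -0.15, none past the test. Kap, an androgen-regulated protein of the proximal tubule, had levels of 10.42, 9.70 and 9.93 at 0 kBq and of 8.17, 7.44 and 8.60 at 1.8 kBq. The groups did not overlap, but Kap varied widely among the other cortex arrays and its change of -1.95 ± 0.83 did not pass (adjusted p = 0.272).

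Markers of fat cells had lower values at 1.8 kBq, with 0 of 8 called and 0 at an unadjusted p under 0.05. Adipoq, the hormone adiponectin made by fat cells, had levels of 7.07, 7.17 and 7.14 at 0 kBq and was undetected at 1.8 kBq, at least 4.22-fold lower (adjusted p = 0.382, limma). The list's median was -0.79, or -0.55 with such genes at their bound, and its mean level lay between 6.37 and 6.75 at 0 kBq and between 5.57 and 5.72 at 1.8 kBq. Fabp4, Plin1 and Retn were not detected on any of the 6 arrays, and in the 12-array fit 4 of the 8 were lower. Of 4 tested exocrine pancreas genes Cela2a, an elastase, rose at least 1.48-fold but passed in 2 of 6 fits with 1 array left out, and the 12-array fit gave 2 rises and 1 fall. The 9 others, Clps and Cpa1 among them, were not detected on any of the 6 arrays. What part such neighbouring tissue had in the other changes was not tested.

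**Figure D2:**
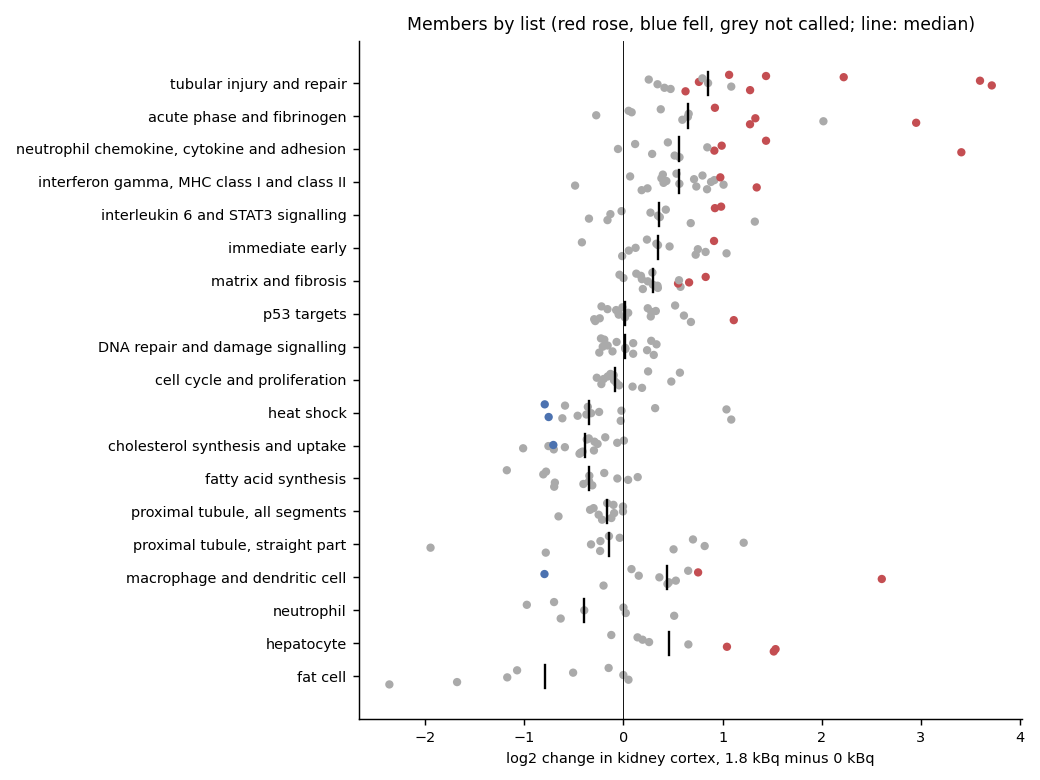
Log2 change at 1.8 kBq against 0 kBq (horizontal axis) of the tested members of 19 gene lists in kidney cortex; each point is a gene, coloured where it was called, and each bar marks the median of a list. The medians of the tubular injury and acute phase lists, 0.85 and 0.65, stand right of 0, and those of the cholesterol, fatty acid synthesis and heat shock lists, -0.39, -0.35 and -0.34, left of it.

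The response at 1.8 kBq was set beside those at the higher activities. The changes at 14 and 42 kBq share the 3 control arrays with the change at 1.8 kBq, so their values are given only side by side. At 14 kBq 16 genes were called against 0 kBq (0.155% of 10331) and at 42 kBq 198 (1.92%), next to 205 at 1.8 kBq (1.98%). The tubular injury list had medians of 0.85 at 1.8 kBq, 0.13 at 14 kBq and 0.30 at 42 kBq. Lcn2 had levels of 5.38, 5.70 and 5.50 at 14 kBq and of 5.96, 6.0 and 6.31 at 42 kBq. Havcr1 had levels of 7.90, 8.18 and 8.14 at 14 kBq and of 9.21, 9.36 and 9.29 at 42 kBq, where its change against 0 kBq was 2.80 (adjusted p = 0.0146, limma). Both genes were thus highest at 1.8 kBq and lower at 14 than at 42 kBq. The interferon gamma and MHC list had medians of 0.56, -0.36 and 0.56 at 1.8, 14 and 42 kBq.

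Tested directly, 42 kBq differed from 1.8 kBq at 637 of 15063 probes (4.23%), 262 higher (1.74%) and 375 lower (2.49%). From 1.8 to 42 kBq the difference was -2.82 ± 0.28 for Lcn2 (adjusted p = 3.95e-06, limma), -2.08 for Cd14, -2.07 for Apoa2, -1.96 for Tnfrsf12a and -1.93 for Klk4. Havcr1, at -0.91 ± 0.60 (adjusted p = 0.485), and Cxcl1, at -1.94 ± 0.68 (adjusted p = 0.13), were not shown to differ. Of the 160 genes that rose at 1.8 kBq, 77 were lower at 42 kBq than at 1.8 kBq and 1 was higher, against 1.93% and 1.89% of all genes, but these contrasts share the 1.8 kBq arrays, so that such a count is only a description. The largest differences the other way were Kap, higher at 42 kBq by 5.43 ± 0.83, the protease inhibitor gene Spink6 by 3.88, the branched-chain aminotransferase gene Bcat1 by 3.64, the organic anion transporter gene Slc22a19 by 3.55 and Mfsd2a, a lysophospholipid transporter, by 3.49. None of these 5 was called at 1.8 against 0 kBq. With 1 of the 6 arrays of this contrast left out the count lay between 284, without array 3 of 42 kBq, and 441, and it was 312, 356, 344 and 358 without array 1 or 2 of 1.8 kBq and array 1 or 2 of 42 kBq; the 12-array fit gave 1611.

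Kidney medulla of the same activities served to ask which changes were particular to the cortex. In a joint fit of 36 kidney arrays 3309 of 16486 probes were called in the medulla at 1.8 kBq (20.1%), and the change differed between cortex and medulla at 1764 probes (10.7%), 1089 with the higher change in cortex (6.61%) and 675 with the lower (4.09%). Lcn2, Timp1, Cxcl1 and Aoc1 rose in both zones. Of the 160 genes that rose in the cortex, 88 also rose in the medulla and 14 fell there. Over all 10331 genes 1329 rose and 900 fell in the medulla. The tubular injury list had 10 of 15 members up in the medulla, with a median of 0.88 against 0.85 in the cortex. For the chemokine, cytokine and adhesion list these values were 9 of 11 and 0.89 against 0.57. In the medulla Lcn2 rose by 3.35, from 7.09, 7.30 and 6.98 to 10.50, 10.43 and 10.50, and the difference between the zones was 0.22 ± 0.35 (adjusted p = 0.765, limma). Havcr1 differed. Its medulla levels were 11.76, 11.54 and 11.69 at 0 kBq and 10.98, 10.99 and 10.92 at 1.8 kBq, so the control medulla already stood above the treated cortex, and the cortex change exceeded the medulla change by 4.34 ± 0.67 (adjusted p = 3.35e-05). Serpina10 went from 9.29, 9.34 and 9.40 to 10.44, 10.56 and 10.30 in the medulla, with a difference of 2.84 ± 0.57 between zones (adjusted p = 0.000867). For both genes the control medulla thus stood above the control cortex, and how cleanly the zones were separated is not given in the sources used here. The part of medulla tissue in the cortex rises of Havcr1 and Serpina10 was not tested. Among 11 markers of the loop of Henle 1 rose in the cortex, Slc12a1, by 0.73, and 0 fell, with changes from -0.53 to 1.09. Of 9 markers of collecting duct principal cells 0 were called, with a median of -0.14 and Aqp2 at -0.15. At an unadjusted p under 0.05 (limma) 1 loop marker was higher and 2 lower. For the principal cell markers these counts were 1 and 1.

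Of the 160 genes that rose in the cortex, 50 had a change called above that in the medulla, as did 517 of all 10331 genes. Both contrasts share the cortex arrays, so this count is only a description. Among the 50 were Slc39a8, by 2.90, Mettl7a2, by 2.26, H2-DMb2, by 1.85, Ahsg, by 1.35, and Hpx, by 1.21. Vim, by 1.16, Apoa1, by 1.03, Cp, by 0.91, Cela2a, by 0.90, and Sparc, by 0.61, were others. Slc39a8 fell by 1.81 in the medulla while it rose in the cortex. Hsph1 fell in the cortex and changed by 0.01 in the medulla, a difference of -0.79 (adjusted p = 0.0197, limma). Clu and Krt18, which did not pass in the cortex, rose in the medulla by 1.55 and 1.05, and the zones differed by -1.15 and -0.71. For Adipoq the medulla rose by 2.93 where the cortex was lower, a difference of -5.33 ± 1.43 (adjusted p = 0.0127). The fat cell list had a median of 1.42 in the medulla against -0.79 in the cortex. The part of adjoining fat in the differences between zones was not tested.

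**Figure D3:**
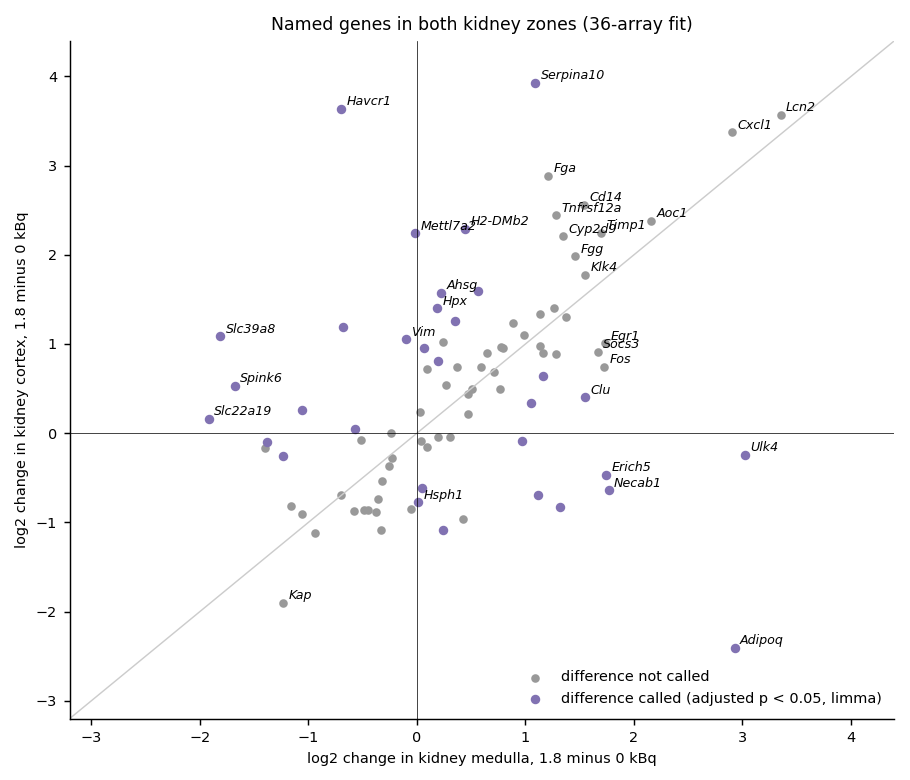
Log2 change at 1.8 kBq against 0 kBq in kidney cortex (vertical axis) and kidney medulla (horizontal axis) for the named genes, from the fit of 36 arrays; each point is a probe, purple where the difference between zones was called. Lcn2 lies near the line of equal change, while Havcr1 lies above it with 4.34 between the zones and Adipoq below it with -5.33.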

How the data were processed

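Total RNA of mouse kidney cortex was measured on Illumina bead arrays in 6 groups of 3 arrays, and kidney medulla in the same way. Per the file headers, the deposited unnormalised table gives every probe 1 linear intensity per array, followed by its detection p-value. Its values are deposited without background subtraction or normalization, as far as the values show, and the scanner software and array settings are not given in the sources used here. The value table that the authors deposited, an intensity on a linear scale, served as an alternative.

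Background was corrected with limma 3.58.1 (R 4.3.3) by normexp from the detection p-values (nec, offset 16), and log2 values were quantile normalized within kidney cortex. Tests covered the 15063 probes detected (p under 0.05) on 3 or more of the 18 arrays. One mean per activity was fitted over 18 arrays (12 residual degrees of freedom) with variances moderated along intensity. The two-sided p-values were adjusted by Benjamini-Hochberg over all probes tested, with a call at an adjusted value under 0.05. Every adjusted p printed comes from limma. Zones were compared in a joint fit of 36 kidney arrays (24 residual degrees of freedom, 16486 probes). The number of arrays limits the precision. For probes with no detected array in a group the fold is a bound against the lowest detected signal of those arrays.

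Of 25697 probes, 23978 had 1 gene symbol, 0 several and 1719 none. Entrez identifiers of 23962 were found in the reference table. Of 679 names in 45 gene lists 607 matched a gene symbol of the array, and a gene with several probes was described by the one with the highest mean over 18 arrays. Named genes were the 12 largest rises and 12 largest falls among calls without overlap (5 each for 42 against 1.8 kBq, 6 each for the zones), up to 6 called and 2 uncalled members per list, and a fixed set of marker genes. The comparison, the lists and the named set were chosen with earlier results of these data known. Deviations from the group means at 0 and 1.8 kBq correlated positively for arrays of the same number (r = 0.263, 0.107 and 0.147 over probes). For arrays of unlike number r lay between -0.214 and 0.117, the highest for array 3 of 0 kBq with array 2 of 1.8 kBq. For 0 with 1.8 kBq the ranges thus overlapped. They did not for 1.8 with 42 kBq, at 0.136 to 0.186 for the same number and at most 0.104 for unlike numbers. The same held for 0 with 14 kBq, at 0.0904 to 0.316 against at most 0.0356. For 14 with 42 kBq the values were 0.197 to 0.307 against at most 0.00447. Arrays of the same number thus tended to deviate alike at these activities. The check did not cover every activity in the fit, so it does not settle the pairing for all of them. The 18-array fit left the number out, and a further fit with the number as a block, taken to pair the arrays, was run.

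Alternatives changed the background correction, the normalization, the offset, the detection filter, the arrays in the fit, the variance model, array weights, the call rule and the source of the values, and left out each array. Lists were described by counts and medians, with no set test. The procedure was tested on simulated data. Promoters came from RefSeq (GRCm38.p6).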

Additional observations from a re-analysis of the deposited data

Results flagged for a closer look

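The change at 1.8 kBq differed between kidney cortex and kidney medulla, by the interaction test of limma over 36 arrays, for 38 of 100 named probes compared, 22 with the higher change in cortex and 16 with the lower. Since 12 of the named genes were chosen for the size of this very difference, and others for their change in cortex, this count is a description and is not set against the share of all probes. All values below are the log2 change in cortex minus that in medulla. Differences above 0 led with Havcr1 at 4.34 and the solute carriers Slc22a19 at 2.08 and 3.56 on 2 probes, Slc22a13 at 1.88 and 2.91, and Slc39a8 at 2.90. The acyl-CoA thioesterase Acot7 stood at 1.29 and 2.87 on 2 probes, Serpina10 at 2.84, Mettl7a2 at 2.26, Spink6 at 2.21 and H2-DMb2 at 1.85. Of these, Slc22a19, Slc22a13, Acot7 and Spink6 were not called in the cortex. The brighter probes of Slc22a19, Acot7 and Spink6 changed by 0.16, -0.10 and 0.53 in the cortex and by -1.92, -1.38 and -1.68 in the medulla, while that of Slc22a13 changed by 1.19 in the cortex and by -0.68 in the medulla. Secreted proteins of the liver type followed, with Ahsg at 1.35, Hpx at 1.21, Apoa1 at 1.03 and Cp at 0.91, and the pancreatic elastase Cela2a stood at 0.90. The remaining positive differences were Bcat1 at 1.31, Vim at 1.16, Nsdhl at 0.97, Cd59b at 0.62 and Sparc at 0.61.

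Differences below 0 were those of Lgals3 at -0.51, Chrna4 at -0.66 and -0.74 on 2 probes, Krt18 at -0.71, Hsph1 at -0.79, Clu at -1.15, Zfp871 at -1.33, S100a9 at -1.81, the inositol transporter Slc5a3 at -2.14, Erich5 at -2.21, the calcium-binding protein Necab1 at -2.41, the kinase-like gene Ulk4 at -3.27 and Adipoq at -5.33. The cytoskeletal gene Actb, often used as a reference, differed by -1.06 on its brighter probe and by -2.77 on another. Its brighter probe changed by -0.09 in the cortex and by 0.97 in the medulla.

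The lowest value was that of the probe ILMN_2835423, which has no gene symbol in the annotation used and was singled out after its values were seen. It differed by -8.30 (adjusted p = 0.000159). In the cortex ILMN_2835423 had levels of 10.13, 10.48 and 10.11 at 0 kBq and of 5.24, 5.66 and 4.90 at 1.8 kBq, and in the medulla of 8.39, 8.27 and 8.22 and of 11.79, 11.79 and 11.47. Among the other cortex arrays its levels were 9.07, 9.13 and 9.18 at 14 kBq and 9.75, 9.99 and 9.92 at 42 kBq, while the 0.064 kBq arrays read 10.16, 7.62 and 14.71.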

How the results depend on the processing

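The count of 301 probes called at 1.8 against 0 kBq moved by over 1.5 times in 1258 calls of the 12-array fit, 748 of a fit of the 6 arrays alone, 1119 with array weights, 98 at an adjusted p under 0.01 with at least 1.5-fold change, and 486 without the 0.64 kBq array with Y-linked RNA. That last fit, and a 12-array fit with the replicate block, which gave 2138 calls, were chosen after seeing the data. Leaving out each array in turn gave 110 to 218 calls for 1.8 against 0 kBq, 284 to 441 for 42 against 1.8 kBq (637 with all arrays) and 1266 to 1631 for the difference between the zones (1764). The 12-array fit gave 1611 calls for 42 against 1.8 kBq, and 24 arrays in place of 36 gave 2863 for the zones. The replicate block gave 397, 787 and 1909 calls for these 3 comparisons. The cause of these shifts was not tested. All other settings lay between 240 (no intensity trend) and 368 (cyclic loess) calls at 1.8 against 0 kBq, and the authors' deposited values gave 315. No named gene called here changed direction under any setting run. Of 55 such genes, 24 passed with each of the 6 arrays left out, and 8 passed in 0 of these fits: Fga, Hsph1, Irf1, Mt1, Mvd, Pdp2, Socs3 and Chrna4. All 55 passed in the 12-array fit, the 6-array fit and with the block, 49 after median scaling and 53 on the authors' values. Of 114 named genes that did not pass, 35 passed in the 12-array fit.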

Other observations

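A few further kidney genes stood apart at 1.8 kBq in the cortex. Nes, the intermediate filament nestin of podocytes, had levels of 7.32, 7.12 and 7.22 at 0 kBq and of 8.46, 8.0 and 8.15 at 1.8 kBq, and rose by 0.98 ± 0.21 (adjusted p = 0.0178, limma). It was the 1 called gene of 7 podocyte markers (2 in the 12-array fit), passed in 2 of 6 fits with 1 array left out, and Wt1, the podocyte transcription factor, changed by 0.30. Cebpb, a transcription factor of the acute phase response, had levels of 7.95, 8.04 and 8.16 at 0 kBq and of 9.52, 9.29 and 9.31 at 1.8 kBq, without overlap, but its change of 1.32 ± 0.42 did not pass (adjusted p = 0.124). Angptl4, an inhibitor of lipoprotein lipase, changed by 0.94 ± 0.25 (adjusted p = 0.0547, but 0.0368 with the replicate block and 0.0116 after median scaling), from 8.96, 9.13 and 9.14 to 10.04, 10.04 and 9.95, and had levels of 10.67, 10.79 and 10.57 at 14 kBq and of 10.80, 10.78 and 10.98 at 42 kBq. Of the clock genes Per1 changed by 0.50 (adjusted p = 0.284) and Dbp by 0.00, and of 13 tested clock genes 0 were called, with 1 higher and 2 lower at an unadjusted p under 0.05 and likewise 1 and 2 in the 12-array fit. Of 23 genes of oxidative phosphorylation 0 were called and 0 had an unadjusted p under 0.05, with a median change of -0.04.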
